A study of Mus musculus with 8 samples.

Results

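Line cKO1 is a culture of mouse embryonic fibroblasts (MEFs) homozygous for a floxed H3f3b allele, and its transcript levels were compared with those of lines cKO2 and pcKO1, which carry the same genotype. The members were taken by the line name in the labels, which gave 2 of the 8 arrays to cKO1, against 4 arrays of cKO2 and 2 of pcKO1. The comparison addresses how far MEF cultures of 1 genotype differ at baseline, and is separate from the contrast between Cre and GFP within a line. All 3 lines were C57BL6J, H3f3b Fl/Fl and isolated at E12.5, and all were transduced with a retrovirus. In the Cre arm the vector was CRE-IRES-GFP, which removes the floxed H3f3b coding exons, and in the GFP arm it was IRES-GFP, which leaves them in place. By the study's methods cells were collected 2 days after a repeated transduction. Line cKO1 had 1 array in each arm, line pcKO1 had 1 array in each arm, and line cKO2 had duplicates in both arms. The study's methods call duplicates of the conditional samples analytical, while its results speak of biological replicates. The labels give both cKO2 duplicates the same line name, and cKO2 counts here as 1 line. H3f3b encodes histone H3.3, the variant of histone H3 that is placed in chromatin outside S phase as well as within it.

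Primary MEFs are mixed mesenchymal cultures from the trunk and limbs of midgestation embryos. They lose proliferation with passage as the p53 tumour suppressor drives the kinase inhibitor p21 (Cdkn1a) and other genes of cell cycle arrest, and cultures that pass this barrier have often lost p53 or the Cdkn2a product ARF. Genes of DNA replication depend on E2F factors released from the RB family in late G1. Genes of mitosis depend on the CHR element bound by the DREAM and MuvB complexes, and p21 holds back both groups of genes. Position along the body axis stays recorded in fibroblasts as a pattern of Hox transcripts.

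Levels are given as log2 intensities after background correction and quantile normalisation, and a difference of 1 on this scale is a 2-fold difference. Each array had 9741 to 10888 probes above its negative control beads, of 25697, and mean scanner signals ran from 341 to 626. Levels of 6.78 or more were detected on every array and those of 6.64 or less on none, so values under 6.78 carry no more than a bound. Below detection means at 6.64 or less, and between these limits detection was not decided here. The number of arrays limits the precision, since 2 arrays of 1 culture stand for cKO1. Where the 3 cultures differ in embryo, passage, culture day or processing, these cannot be told apart from the line, and whether they came from separate embryos is not stated. Columns of the scanner table use 1 cell name for 2 of their 4 pairs, once marked as pooled, so lines may share a source and 3 lines may be fewer than 3 independent isolates. Since RNA was taken from whole cultures, fewer cells of a type and less RNA per cell cannot be told apart either.

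The target transcript was checked first. The H3f3b level was 6.73 in the Cre array of cKO1, against 12.05 in its GFP array, and the first of these is under the limit of 6.78. In the other lines it was 7.39 and 7.42 (cKO2) and 9.77 (pcKO1) in Cre arrays, against 12.42, 12.62 and 11.94 in GFP arrays. Each Cre array thus lay below the GFP arrays, with the smallest loss in pcKO1. H3f3a, the second gene for the same protein, was at 11.73 and 12.04 in cKO1, within the range of 11.54 to 12.69 in the other lines. Eif2s3y, a Y-linked translation factor, was at 8.58 and 8.12 in cKO1 and at 8.67 and 8.47 in pcKO1, against 5.83 to 6.26 in cKO2, which is below detection. Xist, the RNA of the inactive X chromosome, was at 6.35 and 6.60 in cKO1 and at 6.41 and 6.34 in pcKO1, against 7.44 to 7.56 in cKO2. In these 2 genes cKO2 stood apart from both other lines. Of the other 2 sex-linked genes, both Y-linked, Uty did not set cKO2 apart. It was at 7.11 and 7.08 in cKO1, against 6.94 to 7.07 in cKO2 and 6.93 and 6.80 in pcKO1. Kdm5d was lowest in cKO2, at 6.16 to 6.33, but cKO1, at 6.47 and 6.64, was below detection too. The pcKO1 arrays were at 6.80 and 6.91 for Kdm5d.

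Line cKO1 was the line farthest from the rest. Across all 9205 genes tested, its arrays correlated with those of cKO2 at 0.886 to 0.917 and with those of pcKO1 at 0.901 to 0.933, whereas cKO2 and pcKO1 correlated at 0.935 to 0.942. Arrays of 1 line in opposite arms correlated at 0.975 to 0.993, and cKO2 duplicates at 0.994. These values are across genes, which are not independent replicates. At a 2-fold limit on line means, cKO1 differed from cKO2 in 1241 genes (576 higher, 665 lower) and from pcKO1 in 923 (325 higher, 598 lower), whereas cKO2 and pcKO1 differed in 662. Set against the mean of the 2 other lines, 915 genes of cKO1 were at least 2-fold away, against 752 for cKO2 and 456 for pcKO1.

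With 1 culture against 2, the test across lines had little room. Limma, fitted on the 3 line means with 1 residual degree of freedom and a prior of 3.05, called 0 of 9205 genes higher (0%) and 0 lower (0%) at an adjusted p of 0.05. The smallest adjusted p was 0.279, reached by Cdkn1a, Grb10 and Ptn, and 870 genes had an unadjusted p under 0.05 (397 higher, 473 lower). When the 6 line-by-arm means entered with the line as a random block, whose estimated correlation was 0.490, limma called 19 genes higher and 66 lower. When the same 6 means were each counted as a replicate, it called 194 higher and 259 lower. With cKO2 left out and the arms as replicates it called 930 higher and 1217 lower, and with pcKO1 left out 1730 and 1801, which says how cKO1 differed from 1 other culture. All sizes below are therefore descriptions of these 3 cultures, given with the SE of the fit on line means.

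Genes were also counted by whether both cKO1 arrays lay outside the range of the other 6. Both were above all 6 others for 1729 genes (18.8% of those tested) and below them for 1763 (19.2%), and the remaining 5713 overlapped. With a mean difference of at least 2-fold added, 346 genes were higher in cKO1 (3.76%) and 495 lower (5.38%). The same sign in both arms, held by all 841 of these genes, follows from how they were counted. Against cKO2 alone, without pcKO1, 575 were higher, and in the Cre arm alone 553 were higher and 754 lower. The median difference over all genes was -0.02.

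Genes of the p53 pathway were among those farthest below the other lines in cKO1. Cdkn1a, the p21 inhibitor of cyclin-dependent kinases, had levels of 8.34 and 8.23 in the Cre and GFP arrays of cKO1, against 12.81, 12.86 and 13.23 as the lowest, median and highest of the other 6. The difference was -4.65 ± 0.30 (SE, n = 3 lines; limma adjusted p = 0.279), which is 25.1-fold. Every array of the other lines was more than 4 log2 units above both cKO1 arrays. Ccng1, cyclin G1, a p53 target that recruits phosphatase 2A to Mdm2, was at 9.71 and 9.82 in cKO1, against 12.77, 13.19 and 13.40, a difference of -3.40 ± 0.28. Mdm2, the ubiquitin ligase that degrades p53 and is itself induced by it, was at 9.57 and 9.55 in cKO1, against 11.41, 11.97 and 12.11, a difference of -2.34 ± 0.35. Both genes were thus alike in the 2 cKO1 arrays and well below every other array, at adjusted p = 0.461 each. The fit with the line as a random block gave smaller adjusted p for Cdkn1a, Ccng1 and Mdm2. That fit draws on both arms of the same cKO1 culture, which are not replicates of a line, so its p-values are not given.

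Other targets of p53 lay lower as well. Ephx1, a microsomal epoxide hydrolase, was at 9.24 and 9.52 in cKO1, against 12.46, 12.96 and 13.25 in the other lines (-3.46 ± 0.34). Trp53inp1, a stress protein that feeds back on p53, was at 6.79 and 7.00, against 9.38, 10.25 and 10.54 (-3.08 ± 0.48). Zmat3, an RNA-binding zinc finger protein and p53 target, was at 7.31 and 7.14, against 10.08, 10.28 and 10.51 (-3.02 ± 0.35). Phlda3, an inhibitor of AKT, was at 8.86 and 9.40, against 11.70, 12.03 and 12.36 (-2.84 ± 0.33). In none of these 4 genes did a cKO1 array come within 2 log2 units of any other array. Apoptosis genes of the list were less far apart, with Fas, the death receptor, at -1.53, Apaf1, the apoptosome scaffold, at -1.24, and Bbc3, the BH3-only protein PUMA, at -1.20.

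**Figure D1:**
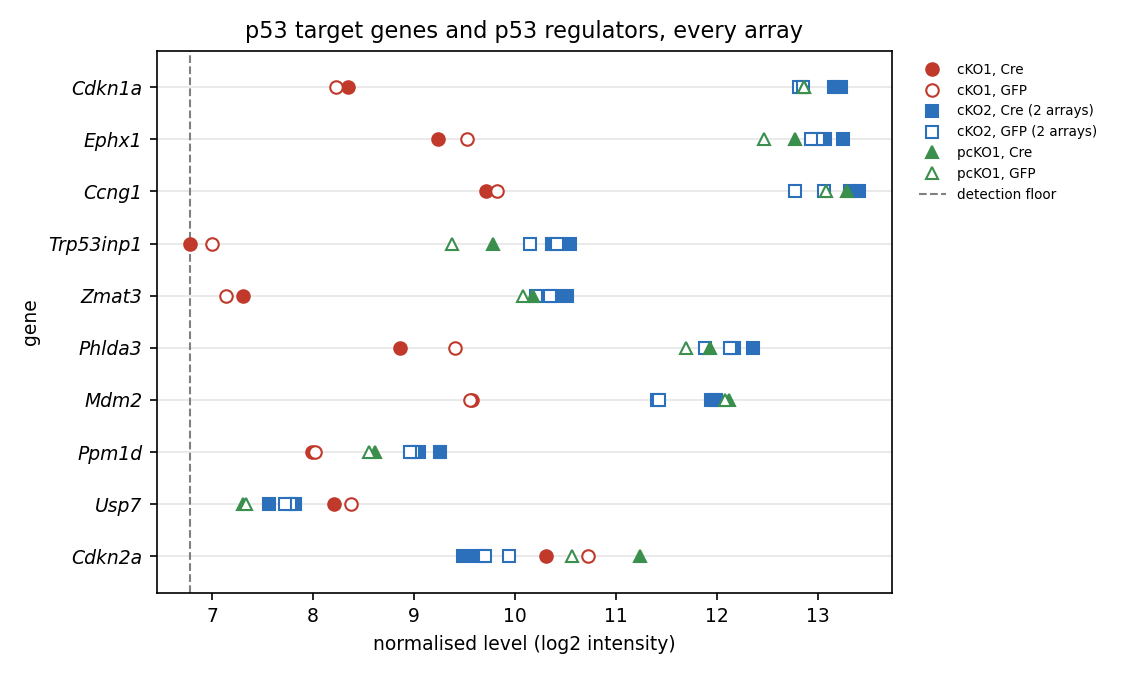
Levels of p53 pathway genes on each of the 8 arrays. Rows are genes and the x axis is the normalised log2 intensity; red circles are cKO1, blue squares cKO2 and green triangles pcKO1, filled for Cre and open for GFP, and the dashed line is the detection limit of 6.78. For Cdkn1a the cKO1 arrays sit at 8.34 and 8.23, and all others at 12.81 or above.

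Of the 36 listed p53 targets, 33 were on the array and 30 were tested. Both cKO1 arrays lay below all others for 25 of the 30 and above them for 0, against 19.2% and 18.8% of all genes. At 2-fold or more, 16 of the 30 were lower and 0 higher, against 5.38% and 3.76% of all genes. The median difference of the list was -1.07, against -0.02 over all genes, and it was -1.01 against cKO2 and -1.06 against pcKO1. Of these 30 genes 3 were below detection on both cKO1 arrays, so they passed the filter on signal through the other lines, in which 28 of the 30 were detected on all 6 arrays. The 5 that overlapped were Gtse1 (-0.67), Sesn1 (-0.39), Gadd45a (-0.26), Eda2r (0.24) and Plk3 (0.26). The list was chosen with the pattern of cKO1 known.

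Regulators of p53 gave no common direction. Ppm1d, the phosphatase WIP1 that turns p53 signalling off and is also its target, was at 7.99 and 8.02 in cKO1, against 8.55 to 9.26 in the other lines (-0.82 ± 0.39). Usp7, a deubiquitinase of Mdm2 and p53, was at 8.20 and 8.38, against 7.30 to 7.82 (0.77 ± 0.36). Cdkn2a, the locus of p16 and ARF, was at 10.31 and 10.72 in cKO1, against 9.49, 9.82 and 11.24 (0.22 ± 0.61, adjusted p = 0.908). The pcKO1 arrays, at 11.24 and 10.57, lay about the cKO1 values and the cKO2 arrays below them on this probe, the brighter of 2. On the second probe the mean was 10.36 in cKO1, against 8.55 in the other lines, and both cKO1 arrays lay above all 6 others (1.81), so the probes disagreed on whether Cdkn2a separated cKO1. The mean of both probes differed by 1.01. Cdkn2b, the neighbouring p15 inhibitor, overlapped too, at 10.43 and 11.26 in cKO1, against 9.55 to 11.12. Trp53 itself was not analysed here and Mdm4 did not pass the filter on signal.

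Genes of the division cycle lay higher in cKO1. Mcm5, a subunit of the replicative helicase, was at 12.12 and 11.41 in cKO1, against 8.31, 9.35 and 10.40 (2.30 ± 0.60). Pclaf, a PCNA-associated factor, was at 10.64 and 10.21, against 7.51, 8.23 and 8.86 (2.19 ± 0.38). Cdt1, which loads the helicase at origins, was at 11.04 and 10.18, against 7.74, 8.50 and 9.05 (2.11 ± 0.44). In all 3 genes the Cre array of cKO1 was the highest of the 8 arrays, and the cKO2 Cre arrays were the lowest. Mcm10, an origin-firing factor, differed by 2.17 ± 0.51. Limma's adjusted p was 0.461 or 0.496 in each of these 4 genes.

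Mitotic genes showed the same order of lines. Cdc20, the activator of the anaphase-promoting complex, was at 11.78 and 11.25 in cKO1, against 8.31, 9.06 and 10.61 (2.06 ± 0.71). Birc5, the survivin subunit of the chromosomal passenger complex, was at 11.14 and 10.81, against 7.84, 8.67 and 10.07 (2.06 ± 0.65). Aurka, a spindle kinase, was at 10.69 and 9.63, against 7.17, 7.65 and 8.89 (2.06 ± 0.65). The highest of the other arrays was the GFP array of pcKO1 in each of the 3, so pcKO1 lay between cKO1 and cKO2. Plk1, a kinase of mitotic entry, differed by 1.88 ± 0.64, and Cdca8, the borealin subunit of the passenger complex, by 2.50 ± 0.31. Hmgb2, a chromatin protein of dividing cells, was at 10.18 and 9.58 in cKO1, against 7.10, 7.69 and 8.06 (2.27 ± 0.35).

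Both cKO1 arrays lay above all others for 17 of the 17 mitotic regulators tested (29 listed, 25 on the array) and for 22 of the 22 genes of DNA replication and nucleotide synthesis (31 listed, 27 on the array), against 18.8% of all genes. At 2-fold or more, 15 of 17 and 21 of 22 were higher and 0 lower, against 3.76% of all genes. The medians were 1.66 and 1.64, against -0.02 over all genes. Against cKO2 the medians were 2.07 for mitotic regulators and 1.89 for replication genes, and against pcKO1 they were 1.23 and 1.34. All members tested were detected on both cKO1 arrays, and 12 of 17 and 17 of 22 on all 6 others.

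Regulators of the G1 phase were mixed. Of 17 tested, 6 lay above all other arrays in cKO1 and 2 below, against 18.8% and 19.2% of all genes, with a median of 0.22. Higher were Ccne2, a cyclin E (1.44 ± 0.26), Cdk2, its partner kinase (1.19 ± 0.34), the INK4 inhibitor Cdkn2c (1.17 ± 0.34) and E2f3, a transcription factor of the G1 to S transition (1.04 ± 0.33). Lower were Cdkn1a and Rb1, the retinoblastoma gene, at 8.05 and 7.91 in cKO1, against 8.61 to 8.85 (-0.74 ± 0.34). The D cyclins overlapped, with Ccnd1 at 11.93 and 12.86 in cKO1, against 11.77 to 13.60. In addition, 3 replication-dependent H2A genes, which are transcribed in S phase, were among the genes with the widest gap. H2ac7 was at 11.29 and 11.34 in cKO1, against 7.83, 8.75 and 9.61 (2.49 ± 0.38), H2ac15 differed by 2.35 ± 0.35 and H2ac12 by 2.31 ± 0.41. Since H2A genes are nearly identical in sequence, their probes may read each other's transcripts, and the 3 values are not separate evidence.

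**Figure D2:**
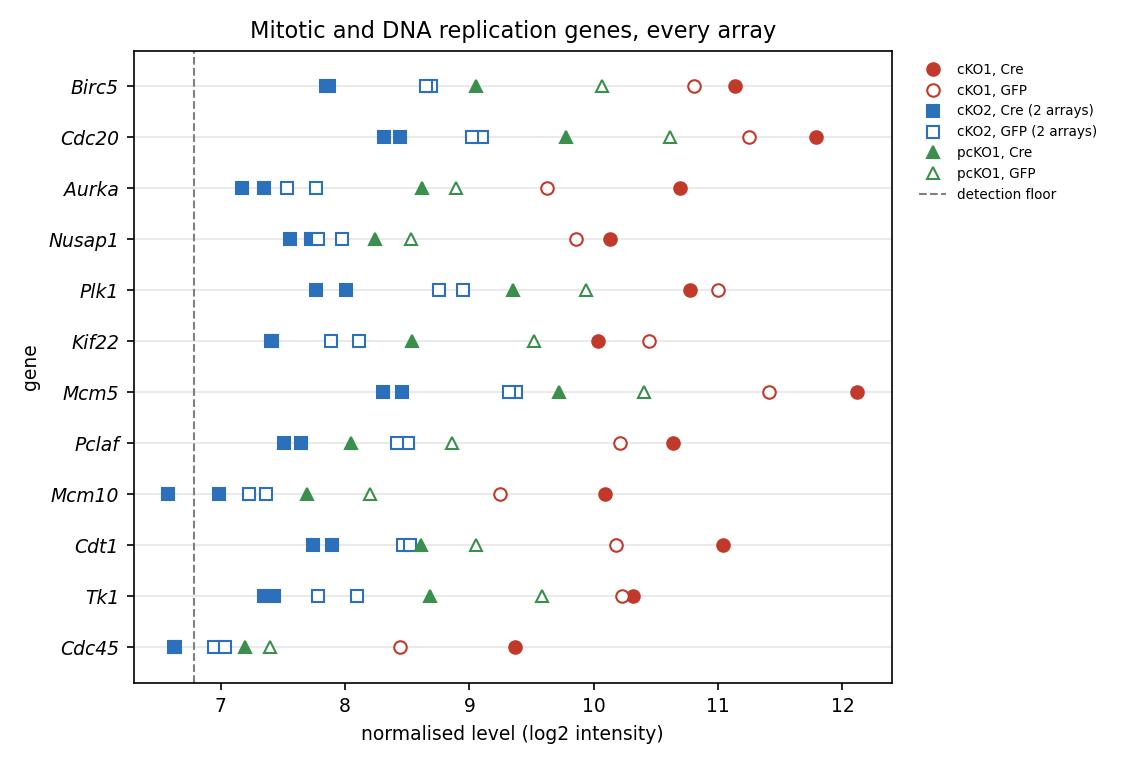
Levels of mitotic and DNA replication genes on each of the 8 arrays, drawn as in the plot of p53 pathway genes. The cKO1 arrays are rightmost in every row, as for Mcm5, at 12.12 and 11.41 in cKO1 and at most 10.40 in the other lines.

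Promoter sequences from RefSeq (build GRCm38.p6) were read for these 3 lists, since they differ in the motif through which each is known to be controlled. A window of 300 bases, 250 before the annotated start and 50 after it, was held for 6938 of the 9205 genes, and motifs were sought on both strands. The p53 consensus decamer sought here is a part of a full p53 site. It was in 11 of 25 p53 targets with a window (44%), against 8.71% of all genes. It was also in 3 of 14 mitotic regulators (21.4%) and 3 of 21 replication genes (14.3%). The CHR element (TTTGAA or TTCGAA) was in 12 of 14 mitotic regulators (85.7%), against 16.3% of all genes and 4 of 25 p53 targets (16%). An E2F site (TTTGGCGC, TTTCGCGC, TTTCCCGC or TTTGCCGC) was in 8 of 21 replication genes (38.1%), against 4.71% of all genes and 0 of 25 p53 targets. CCAAT was in 11 of 14 mitotic regulators (78.6%), against 43.9% of all genes, 14 of 25 p53 targets (56%) and 12 of 21 replication genes (57.1%). Matches on opposite strands may overlap, and a match describes the letters of a window, not binding. Parts of 9 windows are shown, all from members picked for holding the motif before the start. The motif is in capitals and each part is read 5′ to 3′ on the strand of the gene. The p53 decamer is shown for the p53 targets described first, at chr17:29090893-29090972 (+ strand, nearest match 51 bases before the start), chr11:40755427-40755506 (- strand, 185 bases) and chr10:117710900-117710979 (- strand, 186 bases).
Cdkn1a: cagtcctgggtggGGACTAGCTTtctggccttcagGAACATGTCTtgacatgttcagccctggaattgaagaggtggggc
Ccng1: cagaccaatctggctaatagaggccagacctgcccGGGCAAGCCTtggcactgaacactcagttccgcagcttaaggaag
Mdm2: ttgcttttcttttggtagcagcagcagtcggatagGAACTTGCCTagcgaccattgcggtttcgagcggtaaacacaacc

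The CHR element is shown for 3 mitotic regulators, at chr4:118437344-118437396 (- strand, 18 bases before the start), chr7:127042421-127042472 (- strand, 17 bases) and chr11:99024190-99024247 (- strand, 23 bases). In Kif22 and Top2a the match is on the opposite strand.
Cdc20: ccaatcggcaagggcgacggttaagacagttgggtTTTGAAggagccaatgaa
Kif22: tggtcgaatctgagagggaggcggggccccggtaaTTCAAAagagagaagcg
Top2a: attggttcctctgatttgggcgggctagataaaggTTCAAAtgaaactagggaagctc
All 3 genes were higher in cKO1, with Kif22, a chromosome-bound kinesin, at 1.87 ± 0.66 and Top2a, the DNA topoisomerase of mitotic chromosomes, at 1.66 ± 0.43.

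The E2F site is shown for 3 replication genes, at chr8:75109325-75109402 (+ strand, 149 bases before the start), chr5:138172006-138172083 (- strand, 165 bases) and chr11:98907978-98908055 (+ strand, 138 bases). In Mcm5 the capitals cover 2 overlapping matches on opposite strands.
Mcm5: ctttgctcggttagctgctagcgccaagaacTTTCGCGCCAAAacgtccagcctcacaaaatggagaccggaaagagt
Mcm7: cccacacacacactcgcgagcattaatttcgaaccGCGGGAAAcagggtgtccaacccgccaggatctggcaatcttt
Cdc6: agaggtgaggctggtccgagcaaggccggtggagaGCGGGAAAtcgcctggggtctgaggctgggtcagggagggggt
Mcm7, a helicase subunit, differed by 1.76 ± 0.37 in cKO1 and Cdc6, a helicase loader, by 1.16 ± 0.34.

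Genes of the insulin-like growth factor (IGF) axis and imprinted genes included several of the genes farthest below the other lines in cKO1. Grb10, an imprinted adaptor that inhibits insulin and IGF receptor signalling, was at 6.21 and 6.52 in cKO1, against 12.70, 12.90 and 12.95 in the other lines. Both cKO1 values were below detection, so the level was at least 66.1-fold lower (measured difference -6.47 ± 0.32, adjusted p = 0.279). The 6 other arrays lay close together, so the gap was that of cKO1 alone. Such bounds set the mean of the other lines against the dimmest detected level of the cKO1 arrays.

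Igfbp2, an IGF-binding protein, was at 6.11 in the Cre array and 7.24 in the GFP array of cKO1, against 11.81, 14.44 and 14.67 in the other lines, so it was detected on 1 of the 2 cKO1 arrays. The measured difference was -6.77 ± 0.98, which rests in part on a value below detection, and pcKO1, at 12.93 and 11.81, was itself below cKO2. Igf2, the imprinted fetal growth factor, was at 8.47 and 7.70 in cKO1, against 11.98, 12.38 and 14.62 (-5.04 ± 0.85), with pcKO1 above cKO2. Igfbp5 was at 6.25 and 6.59 in cKO1, below detection, against 8.41, 9.52 and 9.65, which is at least 5.90-fold lower. Igf1, the postnatal growth factor, differed by -1.55 ± 0.47 and Igf2r, the receptor that clears Igf2, by -1.40 ± 0.45. The receptor Igf1r (-0.07 ± 0.28) and its substrates Irs1 (0.04 ± 0.20) and Irs2 (-0.29 ± 0.63) overlapped with the other lines.

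Of 13 genes of the IGF axis tested (15 listed, 14 on the array), 7 lay below all other arrays in cKO1, all 7 at 2-fold or more, and 0 above, with a median of -1.40. Of 20 imprinted genes tested (40 listed, 33 on the array), 12 lay below and 1 above, 9 of them 2-fold or more lower, with a median of -0.78. Of all genes, 19.2% lay below, 18.8% above and 5.38% below at 2-fold or more. These lists share Grb10, Igf2 and Igf2r, and 4 IGF genes and 5 imprinted genes were below detection on both cKO1 arrays. Ndn, the imprinted MAGE-family protein necdin, was at 7.89 and 8.44 in cKO1, against 11.13, 11.31 and 12.66 (-3.73 ± 0.65). Dlk1, an imprinted membrane ligand of the Notch family, was at 6.71 and 7.01, against 8.09, 8.35 and 11.17 (-2.68 ± 1.16), with the pcKO1 arrays far above the rest. Mest, an imprinted hydrolase, was at 6.51 in the Cre array and 8.23 in the GFP array, against 9.10, 10.56 and 10.71 (-2.62 ± 0.64). Not all imprinted genes were low, since Cdkn1c, the p57 inhibitor, was at 9.76 and 10.49 in cKO1, against 9.87 to 10.54, and Peg10 and Gnas lay 0.28 and 0.34 higher.

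Transcripts of the extracellular matrix were lower in cKO1. Dcn, the collagen-binding proteoglycan decorin, was at 5.95 and 6.16 in cKO1, below detection, against 9.67, 10.85 and 11.17 in the other lines, which is at least 13.4-fold lower (measured difference -4.47 ± 0.53). Mfap2, a microfibril glycoprotein, was at 7.02 and 7.52, against 10.12, 11.20 and 11.33 (-3.55 ± 0.49). Prelp, a leucine-rich matrix protein, was at 6.64 and 6.87, against 9.71, 9.91 and 11.09 (-3.51 ± 0.48). The transcript of decorin, detected on all 6 other arrays, was thus not above the negative controls in cKO1. The fibrillar collagen genes Col1a2, Col3a1 and Col1a1 were lower by less and still detected, whereas Col2a1, the collagen of cartilage, was at 6.21 and 6.67 in cKO1, above the detection limit on neither array, against 8.13 to 9.08. Col1a2 was at 7.51 and 8.66 in cKO1, against 9.68, 10.72 and 11.09 (-2.31 ± 0.53), and Col3a1 was at 7.12 and 7.88, against 9.06, 9.40 and 10.22 (-2.09 ± 0.40). Col1a1 was at 11.47 and 12.67, against 12.90, 13.29 and 13.48 (-1.13 ± 0.29). Lox, the enzyme that crosslinks collagen, was at 12.15 and 13.01, against 13.52, 14.47 and 14.62 (-1.55 ± 0.41).

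Of 25 collagen and collagen-processing genes tested (32 listed, 28 on the array), 19 lay below all other arrays in cKO1, 13 of them at 2-fold or more, and 0 above. The median was -1.10. Of 25 matrix proteoglycans and glycoproteins tested (37 listed, 33 on the array), 17 lay below, 13 of them at 2-fold or more, and 0 above, with a median of -1.03. The corresponding shares of all genes were 19.2% below and 5.38% at 2-fold or more. Below detection on both cKO1 arrays were 1 of the collagen genes and 4 of the matrix proteoglycans and glycoproteins. These passed the filter on signal through the other lines, so they could only lie lower or overlap. Against cKO2 the medians were -0.95 and -1.06, and against pcKO1 -0.97 and -1.23. Members that did not separate cKO1 included Serpinh1, the collagen chaperone (-0.0022), Lum, lumican (-1.35, with overlap), and Eln, elastin (0.57).

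**Figure D3:**
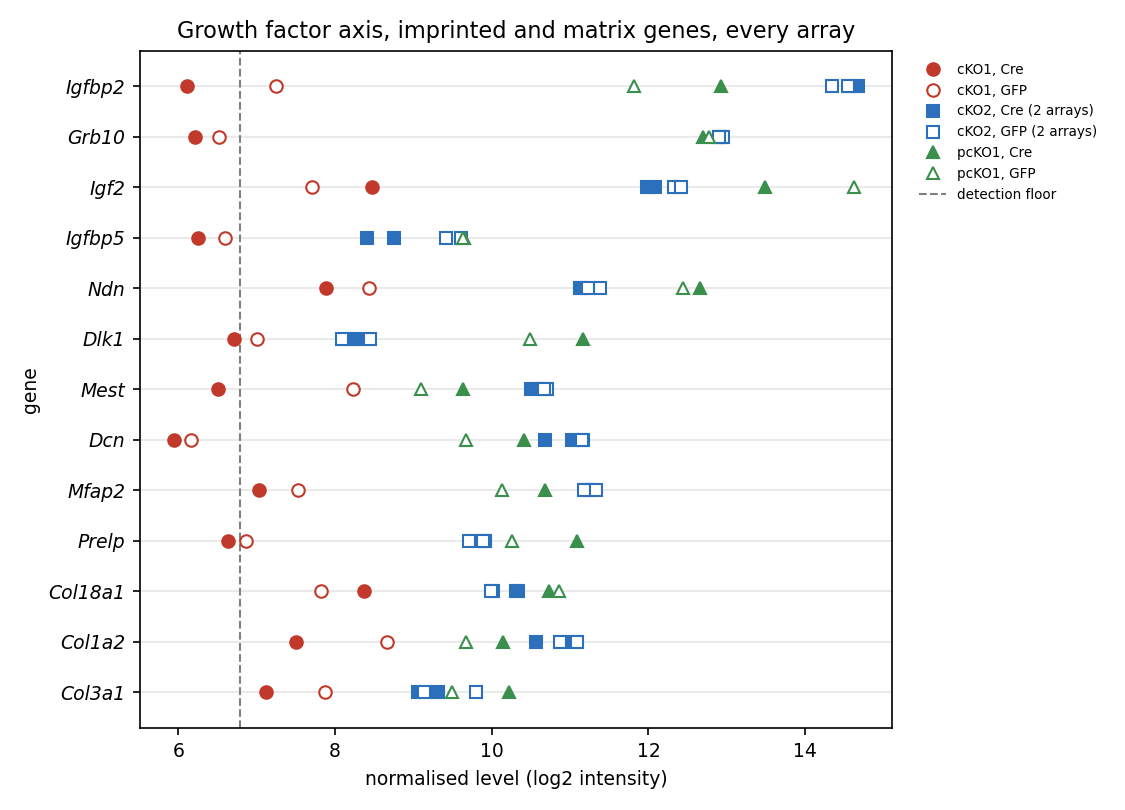
Levels of IGF axis, imprinted and matrix genes on each of the 8 arrays, drawn as in the plot of p53 pathway genes. For Grb10 and Dcn both cKO1 arrays lie left of the detection limit at 6.78, and all 6 other arrays at 9.67 or above.

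The widest gaps outside these groups were found in genes of varied function. Ptn, the heparin-binding growth factor pleiotrophin, was at 6.19 and 6.35 in cKO1, against 11.10, 11.83 and 12.18 (at least 31.5-fold lower; measured difference -5.49 ± 0.33). Itm2a, a membrane protein of mesenchymal cells, was at 6.06 and 6.12, against 10.69, 11.41 and 11.62 (at least 21.0-fold lower). Cyp1b1, a cytochrome P450, was at 6.54 and 6.45, against 10.13, 11.61 and 11.76 (at least 17.6-fold lower). Ptgis, prostacyclin synthase, was at 5.99 and 5.95, against 9.24, 11.15 and 11.27 (at least 11.3-fold lower). All 4 were detected on every array of the other lines and on no cKO1 array. Pdzrn3, a ubiquitin ligase, at 6.66 and 6.38 in cKO1, and Ankrd1, a target of YAP and mechanical load, at 6.76 and 6.24, were also above the detection limit of 6.78 on neither cKO1 array, against 10.19 or more and 9.76 or more in the other lines. Gpx7, a peroxidase of the endoplasmic reticulum, passed that limit on the GFP array alone (6.42 and 6.84 in cKO1, against 10.15 or more), and Dcxr, a sugar and dicarbonyl reductase, on both cKO1 arrays (-3.43 ± 0.35).

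The genes with the widest gap in the other direction began with AP-2 transcription factors, which act in limb, neural crest and ectoderm. Tfap2a was at 9.35 and 9.48 in cKO1, against 6.12, 6.35 and 7.16 in the other lines (2.72 ± 0.48), and Tfap2b was at 9.24 and 9.54, against 5.97, 6.21 and 7.36 (2.75 ± 0.54). The pcKO1 arrays were just above the detection limit and the cKO2 arrays below it for both genes. Fbxo2, an F-box protein that binds glycoproteins, was at 10.54 and 10.84, against 8.10, 8.52 and 8.62 (2.31 ± 0.37). Prkg2, a cGMP-dependent kinase, differed by 2.57 ± 0.73, Eno3, the muscle enolase, by 2.35 ± 0.47, and Nrn1, the neurite growth protein neuritin, by 2.32 ± 0.34. Slc1a3, a glutamate transporter, differed by 2.08 ± 0.41, Artn, a ligand of the GDNF family, by 2.44 ± 0.59, and Rab3b, a GTPase of secretory vesicles, by 1.86 ± 0.33. Foxq1, a forkhead factor, was detected in cKO1 alone, at 8.07 and 7.84, against 5.76 to 6.24, and was at least 2.26-fold higher.

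Hox genes differed in both directions. Of 21 tested (39 listed, 38 on the array), 6 lay above all other arrays in cKO1 and 8 below, against 18.8% and 19.2% of all genes, with a median of -0.42, and 8 of the 21 were below detection on both cKO1 arrays. The higher ones were 5′ members of the HoxA and HoxD clusters, which pattern the distal limb and caudal trunk. Hoxd13 was at 8.27 and 8.63 in cKO1, against 6.08, 6.42 and 6.86 (1.91 ± 0.35). Hoxd10 was at 8.98 and 9.60, against 6.03, 6.44 and 8.35 (2.01 ± 0.91), and Hoxd12 differed by 1.56 ± 0.62. The pcKO1 arrays were detected as well, at 8.35 and 8.19 for Hoxd10 and 7.42 and 7.65 for Hoxd12. All cKO2 arrays were below detection for both, so these genes also set cKO2 apart from pcKO1. Hoxa9 and Hoxa10 lay 0.63 higher each and Hoxa13 0.59. Among the lower ones, Hoxa5, a gene of the cervical and thoracic region, was at 7.02 and 6.83 in cKO1, against 9.27, 9.75 and 9.92 (-2.64 ± 0.40). Hoxc6, another thoracic gene, was at 6.03 and 5.88, below detection, but its median in the other lines was 6.68, with pcKO1 alone at 10.57 and 10.64. In cKO2 it was at 6.60 to 6.75, under the limit of 6.78 as in cKO1, so its low level was not particular to cKO1.

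The label of fibroblasts was set against 14 markers. Of these, 13 were on the array and 12 detected on at least 1 array, 9 of them on both cKO1 arrays, and Postn on none. Vim, vimentin, was at 14.35 on both cKO1 arrays, against 13.92 to 14.06, and Prrx1, a transcription factor of limb mesenchyme, was at 8.64 and 8.94, against 6.83 to 8.45. The summed level of the markers on the linear scale was 26172 to 30105 in cKO1, against 31512 to 44250 in the other lines. Dcn was below detection in cKO1 as above, and Thy1, a surface antigen of fibroblasts, was at 7.42 and 6.71 in cKO1, 8.37 to 8.86 in cKO2 and 13.43 and 13.31 in pcKO1. Line cKO1 thus held vimentin and collagen transcripts but not all defining markers of fibroblasts.

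Markers of other cell types gave no common direction. Of 15 macrophage markers on the array, 1 was detected on both cKO1 arrays, and their sum was 1284 to 1337 in cKO1, against 1304 to 1363 in cKO2 and 9518 to 12567 in pcKO1. Lyz2, the macrophage lysozyme, was at 6.04 and 6.06 in cKO1 and 6.41 to 6.55 in cKO2, both below detection, against 11.65 and 12.31 in pcKO1, and C1qc, a complement subunit, followed the same order. Skeletal muscle markers summed to 2080 to 2166 in cKO1, against 1979 to 2058 in cKO2 and 3655 to 4223 in pcKO1. Both sums thus set pcKO1 apart rather than cKO1, and their part in the differences from pcKO1 was not tested. No endothelial marker, of 14, was detected on both cKO1 arrays (sum 1086 to 1201 in cKO1, against 1366 to 1573). Of 14 epithelial markers, 3 were detected on both cKO1 arrays (sum 1408 to 1631, against 1170 to 1310), and Cldn3, Cldn6, Esrp1 and Grhl2 were on no array. For neural markers, 3 of 14 were detected on both (sum 1899 to 2194 in cKO1, against 1390 to 2098), and Nefl, Nefm, Pax6 and Fabp7 on no array. Of 4 adipocyte markers tested, 3 lay above all other arrays, against 18.8% of all genes, with the lipid synthesis enzyme Agpat2 at 1.08. The remaining 1 overlapped, at -1.60, and was below detection on both cKO1 arrays. The 12 adipocyte markers on the array summed to 1387 to 1601 in cKO1, against 1115 to 1161 in cKO2 and 1654 to 1696 in pcKO1. Of 5 pericyte and mesothelial markers tested, 2 lay above all other arrays and 1 below, against 18.8% and 19.2% of all genes. Cspg4, a pericyte proteoglycan, lay 1.14 higher in cKO1 and Msln, mesothelin, 0.77. Notch3, from the same list, differed by -1.45 and was below detection on both cKO1 arrays. The part of these markers in the differences of cKO1 was not tested.

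Further signalling and defence lists are given by their counts, to be read against 19.2% of all genes below and 18.8% above. Of 21 genes of TGF-beta and BMP signalling, 8 were below all other arrays and 3 above. Tgfbi, a matrix protein induced by TGF-beta, was at 8.59 and 9.01 in cKO1, against 10.66, 12.68 and 13.15 (-3.08 ± 0.92). Id1, a BMP target, was at 10.41 and 10.97 in cKO1, against 8.13, 8.24 and 10.05 (1.62 ± 0.83). The pcKO1 arrays, at 9.86 and 10.05 for Id1, lay nearer to cKO1 than to cKO2. Of 14 Wnt genes, 6 were below and 0 above, led by Dkk3, a secreted Dickkopf-family protein (-2.14 ± 0.33). Of 22 interferon-stimulated and antigen presentation genes, 7 were below and 0 above, with Lgals3bp, a secreted scavenger-receptor glycoprotein, at -2.88 ± 0.90 and the GTPase Gbp2 at -2.04 ± 0.39. The median of that list was -0.16 against cKO2 and -0.82 against pcKO1. Of 16 contractile genes, 7 were below and 0 above, with Mylk, myosin light chain kinase, at 6.25 and 6.40 in cKO1, below detection, against 7.92 to 8.32, which is at least 2.59-fold lower. Cxcl12, a stromal chemokine, was at 10.49 and 10.63 in cKO1, against 12.48, 14.70 and 14.85 (-3.13 ± 0.95). Below detection on both cKO1 arrays were 1 TGF-beta and BMP gene, 4 Wnt genes, 4 of the interferon list and 2 contractile genes. These passed the filter on signal through the other lines.

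Ribosomal, cholesterol and reference genes had medians between -0.02 and 0.38, against -0.02 over all genes. Of 24 ribosomal protein genes, 5 lay above and 3 below, against 18.8% and 19.2% of all genes. Of those below, 1, Rpl22, was at 9.38 and 9.85 in cKO1 and 2-fold or more lower than in the other lines (-1.54 ± 0.69). Genes of cholesterol synthesis and uptake had a median of 0.38. Of 16, 3 lay above all other arrays and 0 at 2-fold, against 18.8% and 3.76% of all genes. The 9 reference genes had a median of 0.27, with Actb at 0.27 ± 0.24 and Gapdh at 0.43 ± 0.31. Tfrc, the transferrin receptor, which is used as a reference gene in some assays, stood out at 11.55 and 10.49, against 7.74, 8.16 and 10.18 (2.12 ± 0.86).

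**Figure D4:**
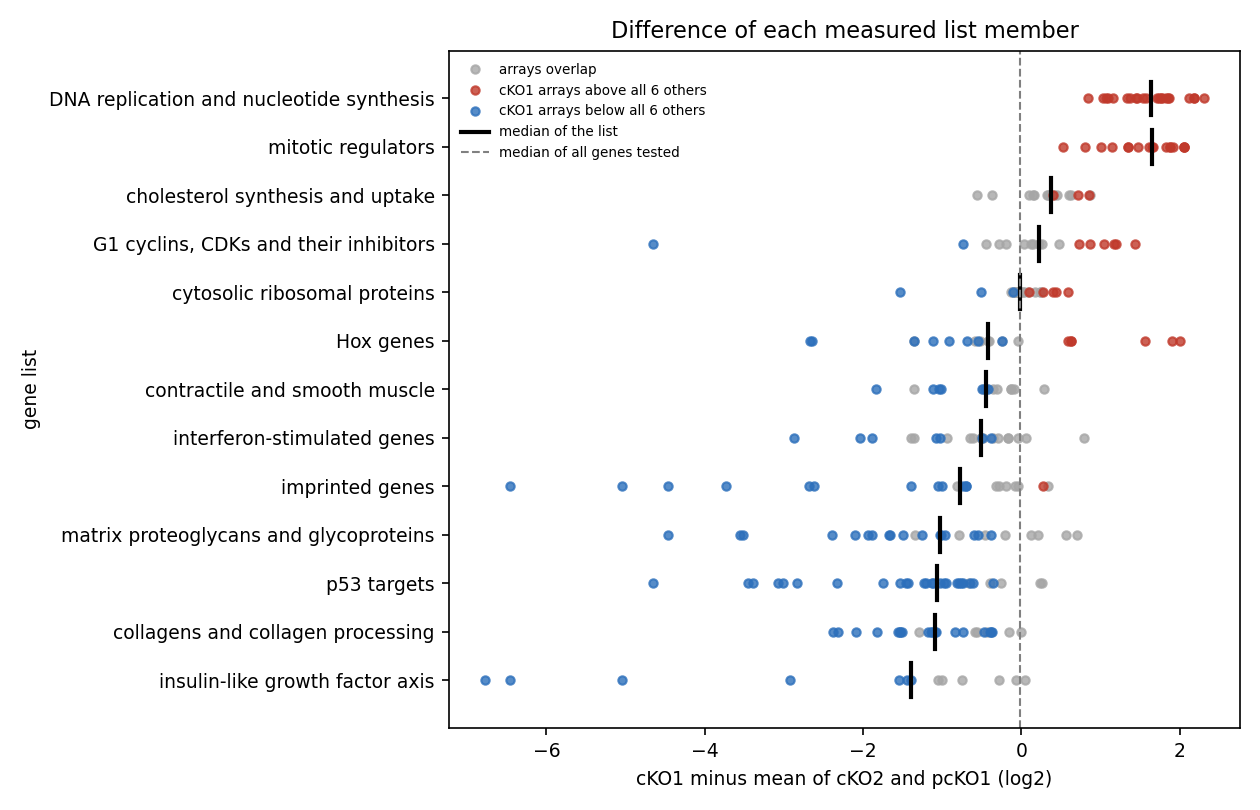
Difference between cKO1 and the mean of the other lines for the members of each gene list, in log2 units, with a black bar at the median of each list and colours for members whose arrays do not overlap (red above, blue below). Members of the replication and mitotic lists all lie right of 0, at medians of 1.64 and 1.66, and the p53 targets have a median of -1.07.

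The arms gave the same picture at different sizes. Across genes the difference in the GFP arm and that in the Cre arm correlated at 0.813, over points that share probes and lines, and their SDs were 0.78 in the Cre arm and 0.62 in the GFP arm. For p53 targets the median was -1.16 in the Cre arm and -1.02 in the GFP arm. For replication genes it was 2.11 in the Cre arm and 1.14 in the GFP arm, for mitotic regulators 1.88 and 1.41, and for collagens -1.62 and -0.55. The high replication and low collagen levels of cKO1 were thus present without Cre and wider with it.

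Whether the difference itself depended on the arm was tested as the Cre effect of cKO1 minus the mean Cre effect of the other 2 lines, by limma over all genes. It passed an adjusted p of 0.05 in 1048 genes (11.4%; 479 higher, 569 lower). The prior of this fit was infinite, so the spread of each gene by itself did not enter, and cKO1 gave 1 Cre effect. The variance followed a trend along the mean Cre effect of each gene, not along its level. Of the 841 genes apart by 2-fold or more, 265 passed, 235 with a wider difference in the Cre arm and 30 with a narrower difference. Among replication genes 17 of 22 passed, all higher in the Cre arm, and among mitotic regulators 5 of 17. Among collagen genes 10 of 25 passed lower and 1 higher, and among matrix glycoproteins 10 of 25 lower. Among p53 targets 1 of 30 passed higher and 3 lower.

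Named genes with a large Cre term included Mest, with a difference of -3.59 in the Cre arm and -1.66 in the GFP arm, and Igfbp2, with -7.66 and -5.89. For Igf2 the difference was narrower with Cre, at -4.29, against -5.80 with GFP. Among other list members, Mmp13, an interstitial collagenase, was at 10.99 in the Cre array of cKO1 and at 7.79 in its GFP array, against 8.72 and 8.83 in pcKO1 and 6.45 at most in cKO2. Msx1, a homeobox gene of limb mesenchyme, was at 8.17 in the Cre array and 10.34 in the GFP array of cKO1, against 9.13 (Cre) and 8.14 (GFP) in pcKO1. The arrays of cKO1 thus crossed those of pcKO1 in opposite directions in these 2 genes, which were chosen after their values were seen. H3f3b was lost least in pcKO1, as given above, and the part of this in the Cre terms was not tested.

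Genes were last grouped by chromosome, for the 8498 with a RefSeq position. Chromosome 1 had the lowest median, at -0.21 over 410 genes, of which 69.0% were lower in cKO1. Its median was -0.19 against cKO2 and -0.18 against pcKO1, and -0.24 in the Cre arm and -0.18 in the GFP arm. Chromosome 11 had a median of -0.13 over 736 genes (63.2% lower), with -0.12 against cKO2 and -0.13 against pcKO1. Chromosome 19 was on the other side at 0.11 over 310 genes (61.9% higher), and chromosome 4 at 0.13 over 519 genes, with medians of 0.20 against cKO2 and 0.05 against pcKO1. All other medians lay between -0.10 and 0.06. These shifts are small beside the SD of 0.67 over genes, were not tested, and are not copy number, which was not measured.

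**Figure D5:**
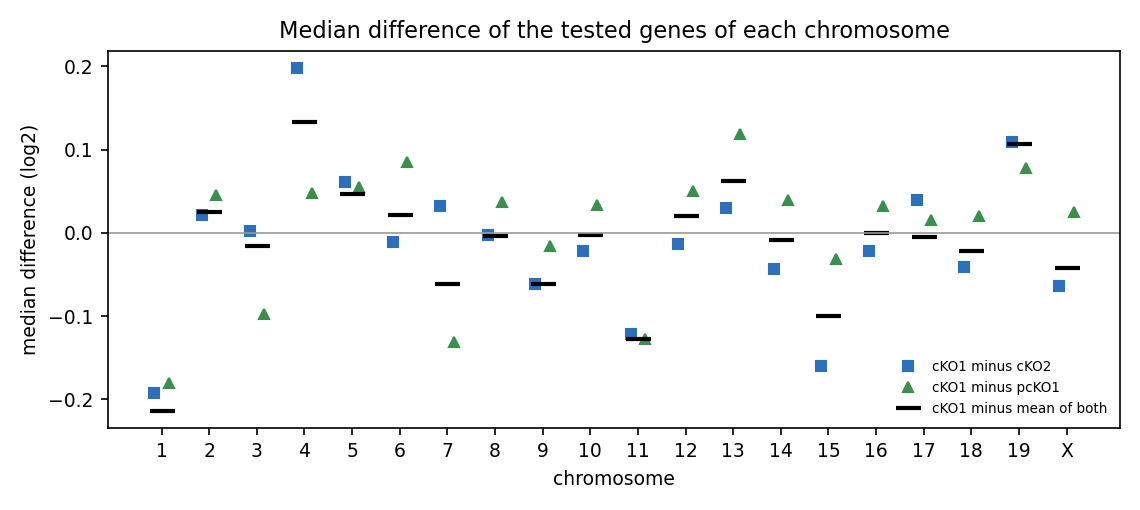
Median log2 difference between cKO1 and each other line by chromosome, with blue squares for cKO1 minus cKO2, green triangles for cKO1 minus pcKO1 and black bars for cKO1 minus the mean of both; the y axis is in log2 units. Chromosome 1 lies lowest in both comparisons, at -0.19 against cKO2 and -0.18 against pcKO1.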

How the data were processed

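The 8 arrays were Illumina MouseRef-8 BeadChips, a 1-colour platform. The authors deposited an average bead intensity per probe for each sample, made in GenomeStudio (version not used here), and in a second table the same intensity with a detection p-value that sets each probe against negative control beads. Each sample column equalled 1 column of the second table times a constant. The 8 scanner columns name the arm and a cell but not a line and were assigned to no line, so detection on a given array was taken from its range of 9741 to 10888 detected probes. A genome build for the array is not given in the sources used here.

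Sample intensities were corrected by normexp (offset 50), quantile normalised and put on the log2 scale in R 4.3.3 with limma 3.58.1. The 12144 probes whose deposited detection p-value was below 0.05 on 2 or more arrays entered, and the brightest probe stood for each of 9205 genes, 703 of them without a symbol. Probes of GEO's platform annotation had 1 symbol (23978) or none (1719), and symbols were updated by Entrez identifier. The cKO2 duplicates were averaged within each arm and the arms within each line. Limma (lmFit, eBayes with trend, two-sided) compared cKO1 with the mean of the others on these 3 line means, with Benjamini-Hochberg adjustment over all genes. The same fit on the Cre-minus-GFP differences tested the arm, with its trend along the mean of these differences and not along the level. The scripts were tested on simulated data.

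The genes named were H3f3b, H3f3a, the markers Cdkn1a, Ccng1, Mdm2, Grb10, Dcn and Igfbp2, Trp53 and Cdkn2a, the 15 higher and 15 lower genes with the widest gap between arrays, up to 6 members of each list with the largest difference among those that did not overlap, genes whose probes disagreed, and sex-linked genes. Other members were named for their role, after their values were seen. The members and all lists were chosen with earlier results of these data known. Alternatives covered the unit of the test, arm, background correction, normalisation, detection filter, probe choice, duplicates, lines and fold limit.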

Additional observations from a re-analysis of the deposited data

Results flagged for a closer look

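In 8 of the 167 named genes, 1 of the 4 cKO2 arrays lay far from the other 3 by Dixon's ratio, which flags about 1 in 20 groups by chance. These were H3f3a in Cre array 2 (12.47, against 12.65 to 12.69), Nrn1 in Cre array 1 (10.26, against 10.20 to 10.21), Prelp in GFP array 2 (9.71, against 9.89 to 9.92) and Hoxc6 in Cre array 1 (6.75, against 6.60 to 6.61). The others were Tgfbr2 in Cre array 2 (12.05, against 11.86 to 11.89), Dkk3 in Cre array 1 (11.47, against 11.63 to 11.64), Fzd1 in GFP array 2 (7.63, against 6.99 to 7.08) and Gapdh in Cre array 2 (14.10, against 14.19).

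In 45 of the 167 named genes the difference between cKO1 and the other lines was not the same in the Cre and GFP arms by limma's test of that difference, at an adjusted p of 0.05. The difference was more positive in the Cre arm in 19 genes. Among division and growth genes these were Mcm5 (1.53), Cdt1 (1.42), Aurka (1.40), Mcm10 (1.35), Cdc20 (1.30), Pclaf (1.27), Birc5 (1.24), Hmgb2 (1.23), Cdc45 (1.21), Ccne2 (1.01), E2f3 (0.98), H2ac7 (0.96), Cdca8 (0.82) and Tk1 (0.81). The others were Tfrc (1.60), Igf2 (1.51), Gclm, a subunit of glutathione synthesis (1.08), the chemokine Cxcl10 (0.78) and Thy1 (0.78).

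The difference was more negative in the Cre arm in 26 genes. Among matrix genes and their enzymes these were Col1a2 (-1.28), Col1a1 (-1.27), Mmp2 (-1.21), Ogn (-1.15), P4ha1 (-1.13), Lox (-1.06), Col3a1 (-0.98), Nid2 (-0.87), Timp2 (-0.78), Mfap2 (-0.77), Mmp11 (-0.73) and Prelp (-0.71). The others were Mest (-1.93), Igfbp2 (-1.78), Myh10 (-1.34), Dkk3 (-1.34), Lgals3bp (-1.30), Map2 (-0.89), Ifit3 (-0.86), Tgfb3 (-0.82), Gbp2 (-0.81), Phlda3 (-0.79), Rpl22 (-0.71), Artn (-0.70), Hoxd10 (-0.69) and Pmp22 (-0.68). The difference stood on 1 Cre array of cKO1 in each case.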

How the results depend on the processing

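The count of genes called was 0 in each direction under every alternative that kept line means as the unit, whatever the arm, scaling, filter, trend or probe, and it moved with the unit of the test. It was 194 higher and 259 lower with 6 line-by-arm means as replicates, and 19 and 66 with the line as a block. When a duplicate or a line was left out it ran from 0 to 1730 higher and from 0 to 1801 lower, with 930 and 1217 against pcKO1 alone, where only the arms served as replicates. The cause was not tested beyond this change of unit. Genes apart by 2-fold or more numbered 553 higher and 754 lower in the Cre arm alone, 214 higher on the deposited values, 313 lower among probes detected on all 8 arrays (fewer genes were tested), 983 and 1073 at a 1.5-fold limit and 37 and 115 at a 4-fold limit. Leaving out a duplicate or a line gave 324 to 575 higher and 497 to 665 lower, with 575 higher against cKO2 alone. Genes whose line difference depended on the arm fell to 621 on the deposited values, against 1048, and an alternative without an intensity trend, chosen after seeing the data, gave 869.

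Reversed values were small or followed the line left out. Kdm5d, a Y-linked gene, was at -0.01 in the main setting and at 0.068 in the GFP arm, 0.042 on deposited values, 0.02 without the first cKO2 duplicates, 0.29 without pcKO1 and -0.30 without cKO2. Cdkn2a was at -0.088 in the Cre arm. With cKO2 left out and with pcKO1 left out, the differences were -0.39 and 0.83 for Cdkn2a, -0.22 and 2.29 for Eif2s3y, 0.27 and -0.74 for H3f3a, and 0.10 and -1.02 for Xist. Gusb turned to 0.092 with the mean of its probes, and probes of Nsdhl, Gusb and Wnt5a disagreed in direction. List medians kept their sign for p53 targets (-1.17 to -0.86), mitotic regulators (1.23 to 2.07), replication genes (1.14 to 2.11), the IGF axis (-1.93 to -1.15), collagens (-1.62 to -0.55) and imprinted genes (-0.99 to -0.21), but not for ribosomal proteins (-0.08 to 0.11), G1 regulators (-0.07 to 0.60) or p53 regulators (-0.49 to 0.15). No paired analysis was possible because replicate numbers only name the arrays of a line, and no label ties an array of cKO1 to one of another line. Levels under the detection limit of 6.78 have no order, and 1351 of the 9205 genes were under it on both cKO1 arrays, 895 of them certain not to be detected there.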
